A study of Drosophila melanogaster with 2 samples.

Results

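The transcriptional corepressor genes gro, CtBP, sbb, Gug, Smr, HDAC1 and Sin3A were examined for binding of the zinc finger transcription factor Tiptop (Tio). They are 7 of the 13945 protein-coding genes annotated on the 6 main chromosome arms of Drosophila melanogaster. Members were chosen by function, and a gene held a peak when a peak summit lay in its annotated span or in the 1 kb upstream of its 5 prime end. The data came from chromatin immunoprecipitation and sequencing (ChIP-seq) of whole embryos of both sexes, collected 4 to 24 h after laying. The embryos were from a single transgenic line that stably carries tio with green fluorescent protein (eGFP) at its C terminus, precipitated with an antibody to GFP. The 2 biological replicates share line, tag, stage and antibody and form 1 group, so there was no contrast to test, and every value below is a description. The control library was not analysed here. Binding in few cells of the embryo and weak binding in many cells cannot be told apart.

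Corepressors do not bind DNA on their own but are brought to genes by DNA-binding repressors. Groucho (encoded by gro) is recruited by Hairy-type and Engrailed-type repressors and can act over long distances, and C-terminal Binding Protein (CtBP) is recruited by short-range repressors such as Knirps and Snail. Brakeless (sbb) and the Atrophin protein Grunge (Gug) work with the repressor Tailless, and the large scaffold SMRTER (Smr) works with the ecdysone receptor and with Suppressor of Hairless. Sin3A is a scaffold that carries the histone deacetylase HDAC1, also known as Rpd3, which removes acetyl groups from histones.

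Peaks were found in 5 of the 7 genes, and CtBP and HDAC1 held none. Together the genes held 27 of the 3793 peaks that the authors kept after an irreproducible discovery rate (IDR) procedure. These 3793 peaks are the regions of the pooled list with the highest signal, down to rank 3793, and not each of them has a matching region in both replicates. There were 13 in sbb, 6 in Smr, 4 in Sin3A, 2 in gro and 2 in Gug. Of all protein-coding genes, 16.2% held at least 1 such peak, but a long gene has more room for one. The share was 8.91% of genes with a span under 5 kb (the class of HDAC1), 29.9% from 5 to 20 kb (gro, CtBP and Sin3A), 54.4% from 20 to 50 kb (Gug) and 65.5% of genes of 50 kb or more (sbb and Smr). In these classes a peak was held by 0 of 1, 2 of 3, 1 of 1 and 2 of 2 members, numbers too small to read against the shares. At least 5 peaks were held by sbb and Smr and by 0.803% of protein-coding genes. With sbb counted, 4 protein-coding genes held 13 or more peaks, and 67 held at least the 6 of Smr.

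**Figure D1:**
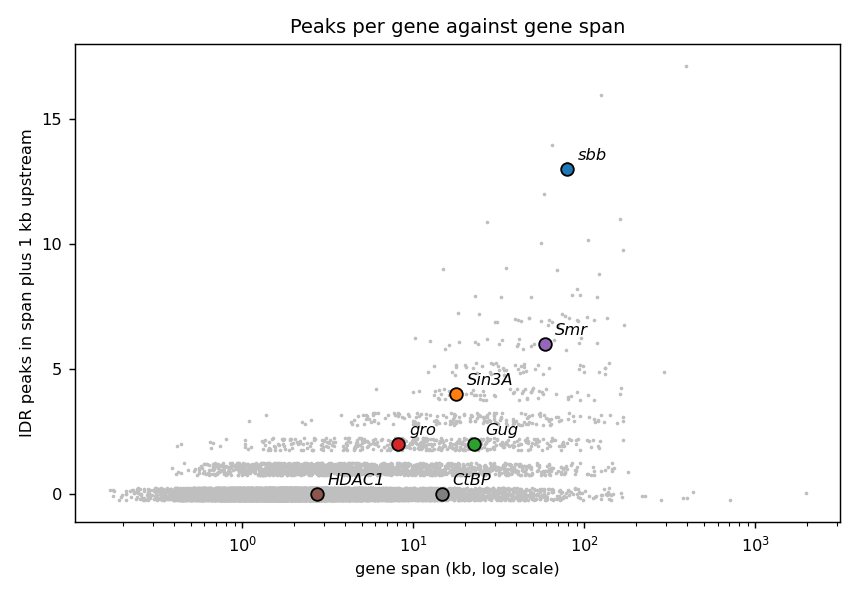
Number of IDR peaks in the span plus 1 kb upstream (vertical axis, with small random offsets for the grey points) against gene span in kb (log scale) for 13945 protein-coding genes in grey and the 7 corepressor genes in colour. sbb lies near the top with 13 peaks, while CtBP, with a span of 14627 bp, and HDAC1, with 2734 bp, lie at 0.

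The peak signals below are the authors' own values. Their scaling is not given in the sources used here, and at these peaks a pooled value is typically 1.99 times (median) what the replicates average, so the 2 kinds of value are not on 1 scale. Whether the replicate lists share a scale is unknown. The pooled signals of the 27 peaks ranged from 88.1 to 777 with a median of 167, against a range of 87.5 to 2078 and a median of 145 over all IDR peaks. Of the 27, 10 (37.0%) were among the 25.0% of all IDR peaks that had the highest signal.

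**Figure D2:**
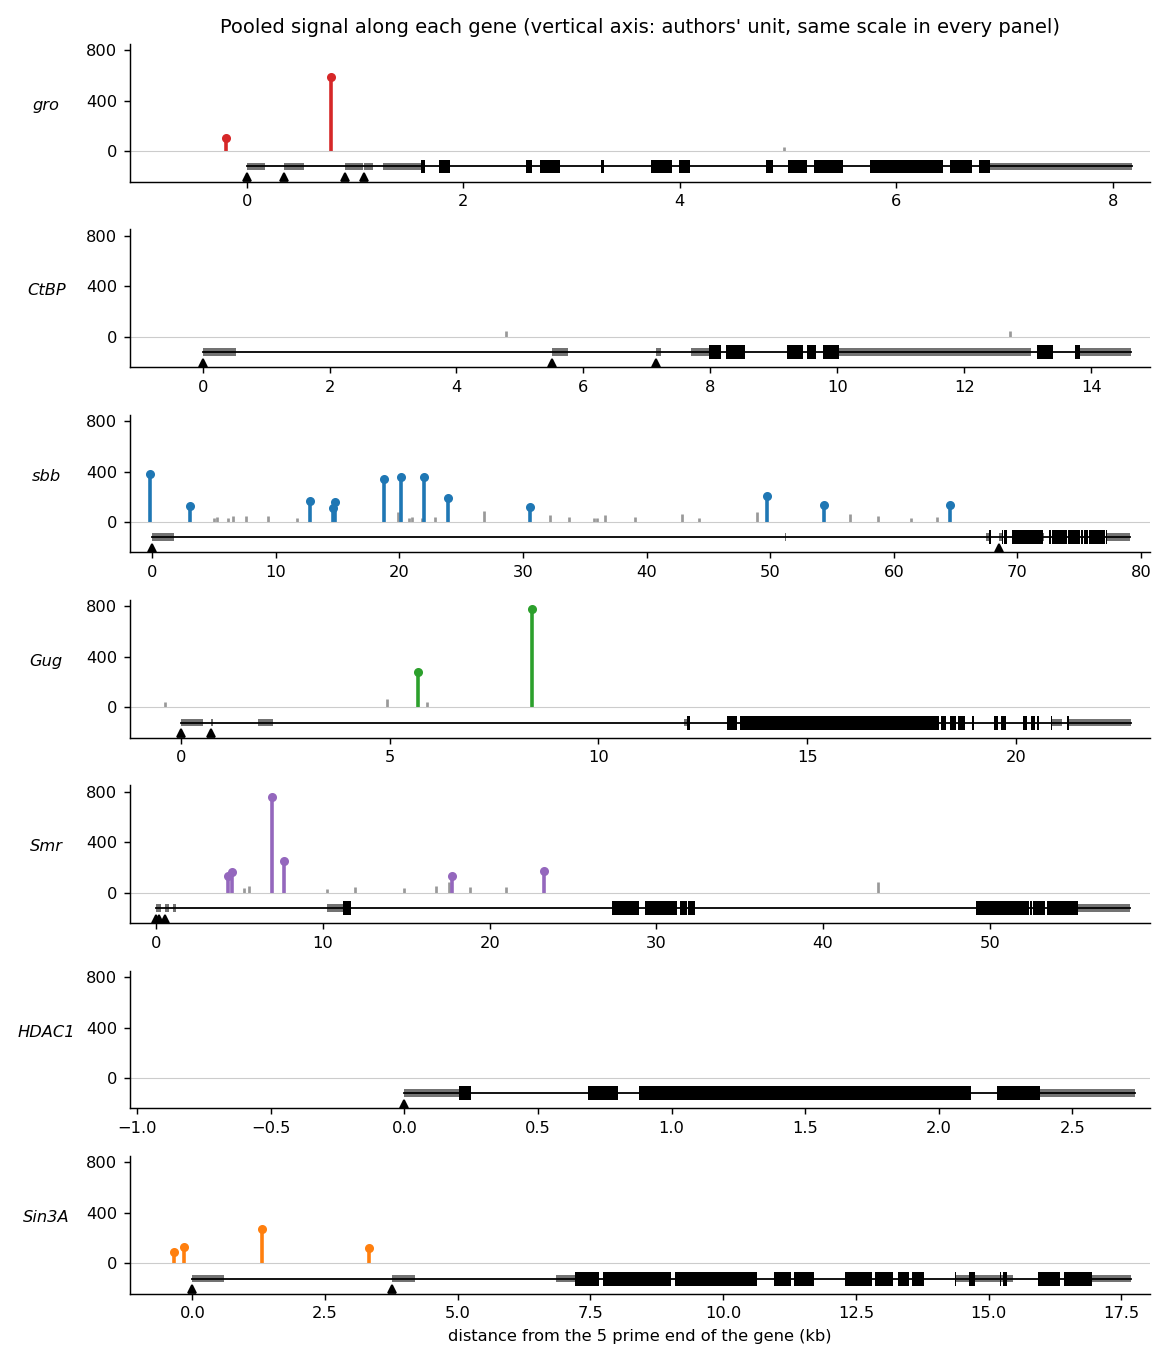
Pooled signal (vertical axis, authors' unit) along each gene, with distance from the 5 prime end in kb on the horizontal axis, coding exons in black, other exons in grey and start sites as triangles. Coloured stems are IDR peaks and grey stems are weaker regions of the pooled list. In gro, sbb, Gug and Sin3A every coloured stem lies to the left of the first coding exon.

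In gro (FBgn0001139, 3R, 26041736 to 26049911, plus strand) the 4 annotated start sites fall within 1084 bp of each other. Of its peaks, 1 lay among these start sites and the other just upstream of the first. The stronger summit, at 26042510, was in intron 1 of the transcript gro-RH and 131 bp upstream of the third start site. Its pooled signal was 588 (rank 131 of the IDR list), with 293 in replicate 1 and 292 in replicate 2. The replicate values were thus nearly equal at this peak. The weaker summit, at 26041546, lay 190 bp upstream of the first start site. Its pooled signal was 102, with 56.4 in replicate 1 and 54.0 in replicate 2, so the peak inside the gene was the higher one in both libraries. The pooled list held 1 further region in gro, at 26046700 with a signal of 32.7, and only replicate 2 listed a region there (19.1).

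gro stands at the end of the Enhancer of split complex, whose bHLH genes encode repressors that recruit Groucho. The next IDR summit outside the extended span lay 5100 bp upstream of gro, at 26036636, 402 bp from the start site of E(spl)m7-HLH. Its pooled signal was 267, with 141 in replicate 1 and 129 in replicate 2. Within 50 kb upstream of gro there were 8 IDR summits outside its extended span, with the highest in the extended span of E(spl)m3-HLH (pooled signal 684, with replicate values of 372 and 308). On the other side, the next summit lay 40135 bp from the 5 prime end of gro, in dysf, with a pooled signal of 108. The following one, also in dysf, lay 57369 bp from that end (pooled signal 106, with 76.9 in replicate 1 and 27.3 in replicate 2). Peaks near gro were thus more numerous upstream, toward the complex, than downstream.

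Gug (FBgn0010825, 3L, 8449922 to 8472669, plus strand) held the strongest peak of all 7 genes. Both of its IDR summits lay in intron 2 of the transcript Gug-RD, ahead of the first coding base, which is 12119 bp from the 5 prime end. The summit at 8458325, 7677 bp downstream of the nearest Gug start site, had a pooled signal of 777 (rank 61), with 406 in replicate 1 and 371 in replicate 2. The second, at 8455593 and 2732 bp nearer to the start, had a pooled signal of 279, with 162 in replicate 1 and 119 in replicate 2. The first exceeded the second in both replicates by far more than the replicates differed. No IDR summit lay within 1 kb of either Gug start site. A weak pooled region stood 375 bp upstream of the first one (signal 43.6), where replicate 2 listed a region (39.2) and replicate 1 none within 100 bp. Downstream of the summit at 8455593, replicate 2 also listed a second region, at 8455718 with a signal of 104, and the nearest weaker region of the pooled list was at 8455809 (44.9).

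Smr (FBgn0265523, X, 12684203 to 12742618, minus strand) held 6 peaks, all of them in introns 1 and 2 and none within 1 kb of its 3 start sites. Of these, 4 lay in intron 1 of the transcript Smr-RF and 2 in intron 2. The strongest summit, at 12735691 and 6379 bp downstream of the nearest Smr start site, had a pooled signal of 761 (rank 67). Replicate 1 gave 446 and replicate 2 gave 323, the widest gap in absolute signal among the members' peaks. A second peak stood 716 bp further into the gene, at 12734975, with a pooled signal of 252 (141 in replicate 1 and 121 in replicate 2). Nearer to the start, the summits at 12738289 and 12738052 were 237 bp apart, with intervals that overlap. Their pooled signals were 133 and 164, and both were higher in replicate 2 (70.2 and 91.4) than in replicate 1 (59.4 and 74.6).

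The 2 peaks in intron 2 of Smr also lay in the extended span of the long noncoding RNA gene CR43963. The one at 12719387 was 927 bp from a start site of that gene. This summit had a pooled signal of 169 and the largest ratio between replicates among the members, with 101 in replicate 1 and 58.1 in replicate 2. The other, at 12724854 with a pooled signal of 131, had a region in replicate 2 (83.6) but none within 100 bp in replicate 1, whose nearest region was 128 bp away (54.9). As a log2 ratio, the replicates thus differed more at 12719387 (0.80) than at the strongest peak of intron 1 (0.46). The summit at 12724854 had no matched pair to compare. A start site of CR43963 was also the nearest to the intron 1 summits at 12735691 (4738 bp) and 12734975 (4022 bp). The nearest Smr start site was 6379 and 7095 bp from them.

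The sequences below are the windows of 201 bases centred on the strongest summit of gro, of Gug and of Smr, which carry the highest signals of the group, and on the second peak of Gug and of Smr beside it. They are read from the dm6 reference genome on the plus strand. Capitals mark matches on either strand to the motifs searched. These were the homeodomain core TAATTA, the Forkhead core TGTTTA, the Exd-Hox motif TGATNNAT, the DREF and BEAF-32 motif TATCGATA, the E-box motif CATATG, the E-box motif CACGTG, the motif AGATAA of GATA factors, the motif GAGAG of Trl, the motif GTGGGAA of Suppressor of Hairless, and the run TTAAAA.
gro strongest peak, chr3R:26042410-26042610: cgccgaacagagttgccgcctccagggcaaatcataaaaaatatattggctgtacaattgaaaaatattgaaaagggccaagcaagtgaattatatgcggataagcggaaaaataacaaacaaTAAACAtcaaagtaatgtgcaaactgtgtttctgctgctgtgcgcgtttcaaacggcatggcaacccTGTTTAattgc
Gug strongest peak, chr3L:8458225-8458425: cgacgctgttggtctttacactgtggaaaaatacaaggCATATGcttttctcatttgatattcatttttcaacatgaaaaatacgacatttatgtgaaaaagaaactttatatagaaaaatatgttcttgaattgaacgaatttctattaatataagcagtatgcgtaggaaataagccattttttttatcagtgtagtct
Gug second peak, chr3L:8455493-8455693: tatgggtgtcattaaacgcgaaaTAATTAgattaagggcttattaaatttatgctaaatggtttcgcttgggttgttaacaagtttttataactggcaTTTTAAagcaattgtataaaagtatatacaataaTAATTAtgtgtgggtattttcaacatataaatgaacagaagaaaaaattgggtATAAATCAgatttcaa
Smr strongest peak, chrX:12735591-12735791: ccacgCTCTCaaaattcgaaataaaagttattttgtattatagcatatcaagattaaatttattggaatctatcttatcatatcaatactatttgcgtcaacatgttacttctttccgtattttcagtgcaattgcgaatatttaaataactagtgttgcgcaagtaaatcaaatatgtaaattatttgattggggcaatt
Smr second peak, chrX:12734875-12735075: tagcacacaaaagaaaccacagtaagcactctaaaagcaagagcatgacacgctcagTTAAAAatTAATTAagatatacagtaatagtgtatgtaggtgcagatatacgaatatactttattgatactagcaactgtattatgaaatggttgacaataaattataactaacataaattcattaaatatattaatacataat
The gro window held 2 matches to the Forkhead core and was the richest of these in G+C (40.3%). The strongest windows of Gug and Smr had a G+C content of 28.9% and 27.9%, and each held 1 match, to CATATG and to GAGAG respectively. The 3 strongest windows shared none of the motifs. TAATTA was found in both second peaks, with 2 matches in Gug and 1 in Smr, and TTAAAA once in each. A match is a match of letters only, and whether any factor binds there was not tested.

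For sbb and Sin3A, positions and signals are given without sequence.

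sbb (FBgn0285917, 2R, 18278198 to 18357296, minus strand) held 13 peaks, or 1.62 per 10 kb of extended span. In genes of 50 kb or more that held any peak, the median was 0.302 per 10 kb. The gene has 2 start sites 68535 bp apart, and only the upstream one had an IDR summit within 1 kb. This promoter summit, at 18357423 and 127 bp upstream of the start, was the strongest of the gene, with a pooled signal of 380 (193 in replicate 1 and 181 in replicate 2). The other 12 summits all lay in intron 2 of the long transcript sbb-RG, ahead of the first coding base, which is 67711 bp from the 5 prime end.

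Within that intron 7 summits stood in 11136 bp, from 18333395 to 18344530, that is 12766 to 23901 bp downstream of the first start site. They included the 3 strongest peaks of the intron. The summit at 18335268 had a pooled signal of 356, with 180 in replicate 1 and 174 in replicate 2. The summit at 18337184 had 354, with 186 in replicate 1 and 173 in replicate 2. The summit at 18338527 had 343, with 209 in replicate 1 and 153 in replicate 2. The replicate values of these 3 overlapped, so they have no order among themselves. Those of the promoter peak overlapped all but the first, whose higher value was just under its lower one. Within each replicate the promoter peak was above 18335268 and 18337184. Against 18338527 it was lower in replicate 1 (193 against 209) and higher in replicate 2 (181 against 153). The fifth, at 18307577, stood 49719 bp from the 5 prime end with a pooled signal of 207 (116 in replicate 1 and 97.6 in replicate 2), below each of these 4 in both replicates.

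Of the remaining summits, 18344530 had a pooled signal of 167 (95.4 in replicate 1 and 70.2 in replicate 2) and 18333395 had 189 (83.9 and 101), at either end of the cluster. Outside it, 18354232 had 131 (73.1 and 62.9) and 18326699 had 121 (59.7 and 60.1). At the low end of sbb, the summit at 18342692 had a pooled signal of 108. It was 201 bp from a stronger neighbour at 18342491 (156, with 85.6 and 81.1) whose interval overlaps its own. Replicate 2 listed a region there (45.9), while the nearest region of replicate 1 was 145 bp away. The last 2 summits of the intron fell in or near genes nested in sbb, whose span encloses 8 protein-coding genes. The one at 18302956 (137, with 83.1 in replicate 1 and 54.5 in replicate 2) lay in the 3 prime UTR of CG14505. The one at 18292721 (137, with 60.2 in replicate 1 and 76.3 in replicate 2) lay 388 bp from the start site of CG14502. The start site nearest to 18307577 was that of CG14505, 3600 bp away, with the nearest sbb start site at 18816 bp. For 18333395 and 18326699 it was that of Tango8, another nested gene, at 21573 and 14877 bp. The nearest sbb start site was 23901 and 30597 bp from them. To which gene such peaks belong cannot be read from the position of their summits.

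Sin3A (FBgn0022764, 2R, 12575240 to 12592917, minus strand) held 4 peaks around its 2 start sites. The strongest summit, at 12591604 in intron 1 and 1313 bp downstream of the first start site, had a pooled signal of 277, with 146 in replicate 1 and 141 in replicate 2. The other 3 were lower in every replicate that listed them. The summit at 12593065, 148 bp upstream of the first start site, had a pooled signal of 127 (70.4 in replicate 1 and 57.8 in replicate 2). Next to it, 201 bp further upstream and 338 bp from the start site of the neighbour Amph, stood the weakest peak of the group at 12593266. Its pooled signal was 88.1 (rank 3762), and replicate 1 listed a region there (54.7) but replicate 2 none within 100 bp. The summit at 12589592, 440 bp upstream of the second start site and 175 bp from that of the noncoding gene CR30055, had a pooled signal of 124. It was the only matched peak of Sin3A that was higher in replicate 2 (74.0) than in replicate 1 (45.4).

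CtBP (FBgn0020496, 3R, 13011649 to 13026275, plus strand) held no IDR peak, and the nearest IDR summit outside lay 29019 bp upstream, in Paip2 (pooled signal 221, with 122 in replicate 1 and 99.8 in replicate 2). The pooled list held 2 weak regions in CtBP. One, at 13016432, was 729 bp upstream of the second of its 3 start sites, with a signal of 43.8 (rank 13052 of 30000), and replicate 1 listed a region there (39.9). The other, at 13024368, had a signal of 42.3 and a region in replicate 2 (29.8). Neither was listed in both replicates. The highest region of replicate 2 in CtBP, at 13014396 with a signal of 37.8, had no counterpart in replicate 1. At this list depth no region of CtBP recurred in both libraries.

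HDAC1 (FBgn0015805, 3L, 4626734 to 4629467, plus strand), the shortest gene of the group, held no region in the pooled list nor in either replicate list. The other 6 genes held at least 1 pooled region, as did 40.3% of all protein-coding genes. Just outside the limit of 1 kb, IDR summits stood 1682 and 1888 bp upstream of HDAC1, in the extended span of Src64B, which encodes a Src-family kinase. The further one was the stronger, with a pooled signal of 399 (227 in replicate 1 and 167 in replicate 2), and the nearer one had 157 (28.9 in replicate 1 and 87.4 in replicate 2). With an upstream extension of 5 kb both would count for HDAC1. Inside the limit, the summit farthest upstream of a member was that of Sin3A at 349 bp, so none lay close to it.

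**Figure D3:**
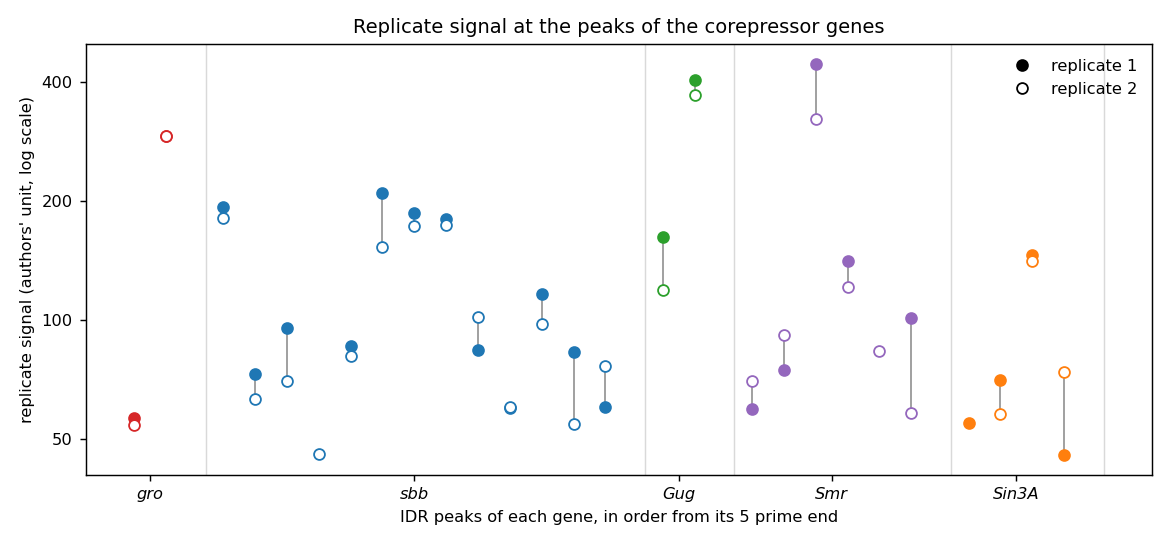
Signal in replicate 1 (filled) and replicate 2 (open) at each of the 27 IDR peaks, by gene and in order from the 5 prime end (vertical axis in the authors' unit, log scale and a line joining values of the same peak). The strongest peaks of Gug and Smr lie at 323 or more in both replicates, and 3 peaks have a matched region in 1 replicate only.

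Ordered by their strongest peak, the genes ran Gug (777), Smr (761), gro (588), sbb (380) and Sin3A (277), followed by CtBP and HDAC1 without a peak. Gug and Smr did not differ beyond their replicate spread, since Smr was higher in replicate 1 and Gug in replicate 2. For each further pair of neighbours in this order, the lower replicate value of the higher gene exceeded the higher value of the next. That comparison crosses the 2 replicate lists, and whether they share a scale is unknown. Within replicates 1 and 2, the ratios were 1.52 and 1.11 from Smr to gro and 1.52 and 1.61 from gro to sbb. From sbb to Sin3A they were 1.32 and 1.29. With 2 values a gene the order carries no p-value. The pooled ratio of neighbours was 1.29 from Smr to gro, 1.55 from gro to sbb and 1.37 from sbb to Sin3A. The order by number of peaks was a different one, led by sbb.

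The replicates gave similar values at these peaks. The IDR list was made from both replicate lists and the pooled list, so this agreement follows in part from the choice of peaks. A region within 100 bp was found in replicate 1 for 25 and in replicate 2 for 26 of the 27 summits, and in both for 24, against 3504 of 3793 over the whole list. The median distance between the pooled and the replicate summit was 11 bp for replicate 1 and 11.5 bp for replicate 2. On the log2 scale, replicate 1 exceeded replicate 2 by a median of 0.10 (SD 0.34 across the 24 peaks), against 0.16 (SD 0.46) over all matched peaks. Replicate 1 was the higher at 18 of the 24, or 75.0%, against 67.6% of all. The ratios ran from -0.70 at the Sin3A summit 12589592 to 0.80 at the Smr summit 12719387, and in 3 cases the 2 values differed more than 1.5-fold.

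**Figure D4:**
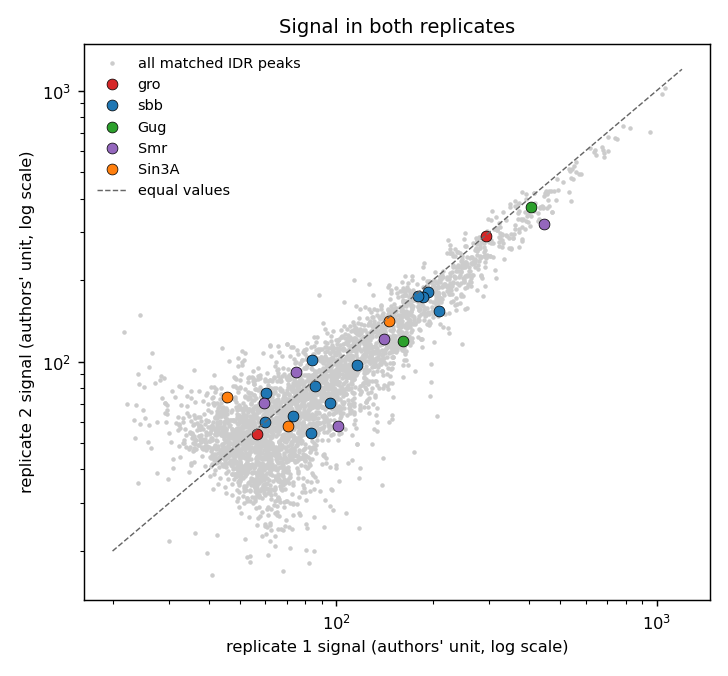
Replicate 2 signal against replicate 1 signal (authors' unit, both axes log scale) for all matched IDR peaks in grey and the 24 matched peaks of the corepressor genes in colour, with a dashed line of equal values. The coloured points follow the grey cloud, and the strongest gro peak lies on the line at 293 and 292.

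The summits lay in introns and at start sites, and none fell in an exon of the gene they were assigned to. By class, 18 of the 27 were intronic (66.7%, against 35.8% of all IDR summits) and 8 lay within 1 kb of an annotated start site of any gene (29.6% against 48.7%). Under the rule for members none could be intergenic, so these shares follow in part from it. Of the 8 promoter summits, 2 were in gro, 2 in sbb, 1 in Smr and 3 in Sin3A. A summit within 1 kb of one of their own start sites was found in gro, sbb and Sin3A, and in 12.6% of all protein-coding genes.

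Most of the summits lay ahead of the coding sequence. In gro, Gug, sbb and Sin3A every summit was upstream of the first coding base of any transcript, and in Smr 4 of 6 were, a total of 25 of 27 (92.6%). Over all protein-coding genes that held peaks, this was so for 2424 of 3817 pairs of gene and peak (63.5%). The stretch ahead of the coding sequence made up 54.8% of the extended spans of the 5 genes and 33.6% of those of all genes with peaks. As a share of the extended span it was largest in sbb (85.8%) and smallest in Smr (20.5%). This property was chosen after the maps had been seen and was not tested.

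**Figure D5:**
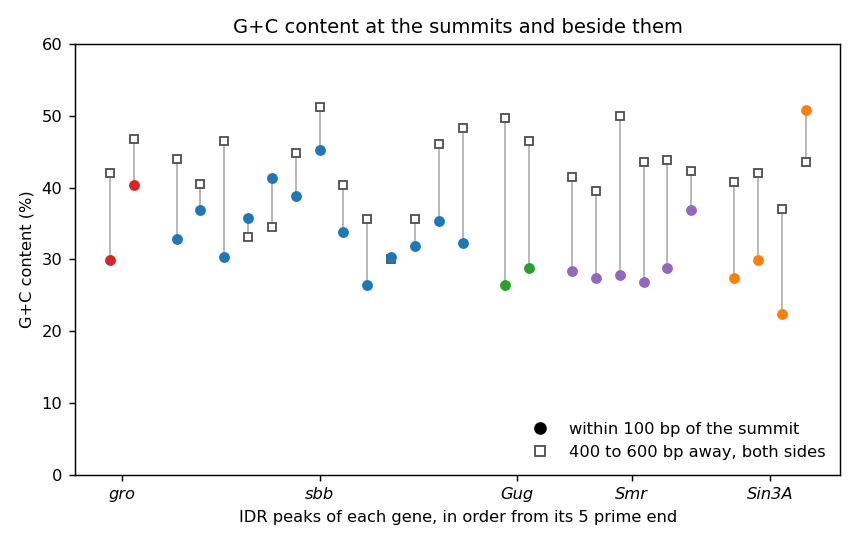
G+C content in percent within 100 bp of each summit (filled circles) and 400 to 600 bp away on both sides (open squares) for the 27 IDR peaks by gene. The summit is the poorer in G+C at 23 of the 27, and the Sin3A summit with 50.7% is the clearest exception.

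The summits were poor in G+C. Windows of 201 bp held 32.7% ± 6.45 (SD across 27 peaks), against 42.2% ± 5.34 in the flanks from 400 to 600 bp, and were below their flanks at 23 of 27 peaks (85.2%, against 85.1% of all IDR peaks). The mean over all IDR windows was 33.8% ± 5.99. The lowest value was 22.4%, at the strongest Sin3A summit, and the highest 50.7%, at the summit of Sin3A beside its second start site. The 3 peaks of sbb that were not below their flanks included the overlapping pair in the intron cluster.

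The most frequent motifs were those made of A and T or nearly so. TTAAAA was within 100 bp of 13 of the 27 summits (48.1%, against 54.0% of all IDR windows), the Forkhead core TGTTTA of 11 (40.7% against 26.8%) and the homeodomain core TAATTA of 7 (25.9% against 19.1%). The Forkhead core was found in 5 windows of sbb, 3 of Sin3A, 2 of Smr and 1 of gro, and in none of Gug. One sbb window, 3064 bp downstream of the start, held 5 matches to it. GAGAG was found in 4 windows (14.8% against 20.8%), TGATNNAT in 4 (14.8% against 16.2%), CATATG in 4 (14.8% against 8.91%), AGATAA in 1 (3.70% against 15.7%) and GTGGGAA in 1 (3.70% against 1.95%). TATCGATA and CACGTG were in none, against 1.48% and 1.69% of all. In 6 windows none of the 10 motifs was found (22.2% against 13.7%). With 27 windows a difference of 1 or 2 changes these shares visibly, and none was tested.

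Below the IDR threshold, the pooled list held 42 further regions in the 7 genes, 26 of them in sbb, 10 in Smr, 3 in Gug, 2 in CtBP and 1 in gro. Both replicate lists had a region within 100 bp for 14 of the 42, of which 9 were in sbb, 4 in Smr and 1 in Gug. The strongest stood in Smr at 12699343, 42727 bp downstream of its nearest start site, with a signal of 87.3 (47.2 in replicate 1 and 43.0 in replicate 2). This is just outside the threshold, whose lowest IDR peak had a signal of 87.5, while the weakest Sin3A peak, with 88.1, is just inside. In sbb the strongest weaker region, at 18330479, had a signal of 83.5 (56.7 in replicate 1 and 34.9 in replicate 2). The lists hold background by design, so these regions are not calls.

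Of 22 other corepressor genes, 6 held IDR peaks. Among partners of Sin3 it was 1 of 8, CG7379 (listed as Ing1, 212). Among subunits of the nucleosome remodelling and deacetylase complex NuRD it was 2 of 4, with simj holding 4 peaks and the highest signal of the list (811, with 440 in replicate 1 and 374 in replicate 2) and the remodeller gene Mi-2 holding 5 (359, with 208 in replicate 1 and 147 in replicate 2). None of the 4 partners of CoREST and SMRTER held one, including HDAC3 and ebi. Of the other deacetylases, Sirt1 (450, with 251 in replicate 1 and 206 in replicate 2) and HDAC4 (161, with 81.7 and 80.3) did, while HDAC6 and HDAC11 did not. Of the adaptor genes, bon held peaks (307, with 176 in replicate 1 and 138 in replicate 2) and H did not. The strongest summits of simj, Mi-2, HDAC4 and bon were intronic, like those of Gug and Smr, and those of Sirt1 and CG7379 were promoter summits. The share of 16.2% of all protein-coding genes is not matched for span. The spans of simj, Mi-2 and HDAC4 are in the class of 20000 to 50000 bp, where the share was 54.4%. That of bon is in the class of 5000 to 20000 bp (29.9%), and Sirt1 and CG7379 are under 5000 bp (8.91%). Every listed gene without a peak is under 20000 bp, and most of them are under 5000 bp. The counts were not tested against these shares.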

How the data were processed

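ChIP-seq peak lists of 2 biological replicates of 1 group were used on genome build dm6. Per the notes deposited with the samples, the authors made each replicate list from that replicate and 1 control, the pooled list from both replicates, and the IDR list from these 3. For aligner, peak caller, IDR threshold and read depth, the sources used here give nothing. The deposited signal column is the authors' peak signal, of unstated scaling, and the q-value column deposited beside it is on a -log10 scale, with 0.0279 the largest q of the IDR list. Replicate and pooled lists hold 30000 regions each, background included. The lists on dm3 were not analysed here. The replicate lists share 0 identical signal values.

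Positions are 1-based. Summits were set against the Ensembl BDGP6.54 annotation (release 115) and the dm6 genome sequence from RefSeq, with Python 3.11.15, pandas 2.3.3 and numpy 2.4.6. A summit within 1 kb of any start site was classed as promoter, and otherwise by UTR, coding exon, other exon, intron or intergenic position, in this order. Regions matched within 100 bp of each other's summits. Assignment and matching were checked on simulated data. The simulated summits for matching stood far apart, so the sharing of a region by close summits was not checked. Members, lists and motifs were chosen with earlier results of these data known. All 22 other corepressor and 20 repressor genes matched the annotation, 5 of them by synonym. Alternatives covered gene assignment, threshold, each replicate alone, matching distance, start-site window and motif window. Without reads per library, no interval that needs depth is given.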

Additional observations from a re-analysis of the deposited data

How the results depend on the processing

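The number of genes with a peak was 5 of 7, and 5 or 6 in the alternatives run except when summits had to lie within 1 kb of a start site of the gene. Then 3 genes (gro, sbb and Sin3A) held 6 peaks in all, since no summit of Gug or Smr is that close to a start site of its own gene. Among the 1896 IDR peaks with the highest signal, 16 peaks were left in the 5 genes, with fewer peaks to count. With a start-site window of 250 bp, 5 summits were classed as promoter. Leaving out a replicate gave 27 or 28 peaks, and CtBP and HDAC1 held none in either case. With overlapping peaks counted as 1, an alternative chosen after seeing the data, 24 remained. Counting the gene span only, without the 1 kb upstream, left 23 peaks, with gro holding 1 and Sin3A 2. With an upstream extension of 5 kb HDAC1 held 2, and by nearest protein-coding start site sbb held 8. Replicates matched at 18 peaks within 50 bp and at all 27 within 250 bp, where neighbouring summits could share a region. The regions added for sbb 18342692 and Sin3A 12593266 were already the match of an adjacent IDR peak. The region added for Smr 12724854 was already the match of a weaker pooled region. These matches are therefore not separate support for the peaks. No paired analysis was possible because there is 1 group. Of the counts for single genes and motifs, 59 stayed within 1.5 times and 17 did not. The 59 include counts of 0 that stayed at 0, as for CtBP, TATCGATA, CACGTG and most settings of HDAC1, for which no ratio exists. Within 50 bp of the summit GAGAG was in 0 windows and within 200 bp in 12. Weak regions cannot be judged further, since read depth is unknown.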

Other observations

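Among 20 genes of DNA-binding repressors known to recruit these corepressors, 3 held IDR peaks, beside 16.2% of all protein-coding genes. Of the 14 listed for Groucho, they were brk, the repressor of BMP target genes (2 peaks, highest pooled signal 446, with 244 in replicate 1 and 196 in replicate 2), and dl, which encodes the NF-kappa-B factor Dorsal (1 peak, 88.3, with 44.2 in replicate 1 and 41.0 in replicate 2). Of the 5 listed for CtBP it was zfh1 (2 peaks, 292, with 156 in replicate 1 and 142 in replicate 2), while Kr, kni, gt and sna held none. The gene tll, listed for sbb and Gug, held none. The share of 16.2% is not matched for span. Kr, kni, gt, sna, tll and brk are under 5 kb, where the share was 8.91%. The span of dl is in the class of 5 to 20 kb (29.9%) and that of zfh1 in the class of 20 to 50 kb (54.4%). Of the genes listed for Groucho that held no peak, vnd, Gsc and run are in the class of dl. The gene pan, also without a peak, is in the class of zfh1.

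The genes with 2 peaks whose highest peak was most like that of gro were Keap1 and kuk, both on 3R. They share that peak, whose signal was 289 in replicate 1 and 274 in replicate 2, a mean absolute log2 difference from gro of 0.056 over the 2 replicates. Of protein-coding genes, 408 others held 2 peaks. No other gene held 13 peaks like sbb.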
